A study of Rattus norvegicus with 22 samples.

Results

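Penetrating ballistic-like brain injury (PBBI) was made on the right side of the brain, so each injured rat carried an injured and an uninjured hemisphere. The comparison described here asked which genes responded to the injury differently on the 2 sides. It used all 22 count columns of the series, the ipsilateral (injured side) and contralateral cortex of 11 rats, 6 with PBBI and 5 sham-operated. For each gene, the log2 difference between the ipsilateral and the contralateral cortex was taken within each rat, and the quantity tested was that difference in PBBI rats minus that in sham rats, called the interaction below. A positive interaction therefore marks a gene whose ipsilateral excess was larger after PBBI than after sham surgery, and a negative one marks a gene that was relatively lower on the injured side.

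All rats were adult male Sprague-Dawley animals (spelled Sprague-Daley in the labels) implanted with recording electrodes for electroencephalography. In the PBBI group a probe was driven into the right frontal hemisphere and its balloon was inflated to form a temporary cavity, whereas sham rats had the same surgery with no probe insertion. Cortical tissue of both sides was collected 24 h after surgery, ribosomal RNA was depleted, and the RNA was sequenced. The rats are called by their numbers, 81, 83, 85, 88, 90 and 96 for PBBI and 82, 84, 86, 91 and 94 for sham, and the values of the 5 sham rats are always given in that order. The libraries held between 42085341 and 63412426 counts on genes. One rat gave 1 library per side, so the rat is the replicate throughout.

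A penetrating wound kills cells along its track and lets blood and plasma proteins into the tissue. Within hours the surviving astrocytes and microglia become reactive: they induce immediate early transcription factors, secrete chemokines that draw neutrophils and monocytes, and produce cytokines of the IL-6 family that signal through STAT3. Over the following days astrocytes and microglia divide and build a scar rich in extracellular matrix around the lesion, while neurons with cut axons switch on regeneration genes. The opposite cortex is connected to the lesion by fibres that cross the midline and shares the circulation of the animal, so each rat's own contralateral cortex serves as a comparison within the animal.

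Of the 32545 gene identifiers, 16587 had enough counts to be tested. The interaction passed the test (edgeR quasi-likelihood test with the rat as a block, Benjamini-Hochberg adjusted p of at most 0.05) in 708 genes, or 4.27% of those tested. It was positive in 489 of them (2.95%) and negative in 219 (1.32%). An unadjusted p under 0.05 was found in 3241 genes. Without the rat as a block 54 genes passed, all among the 708, and DESeq2 with the block called 1715. Within PBBI rats, the ipsilateral and contralateral cortex differed in 3199 genes in the same fit, or 19.3%, whereas within sham rats 0 genes passed (edgeR, with 131 at an unadjusted p under 0.05, and 0 with DESeq2 and with limma voom). All 489 genes with a positive call were higher ipsilaterally in the PBBI rats, and all 219 with a negative call were lower there. Comparing PBBI with sham rats in the contralateral cortex alone gave 0 calls of 15907 with edgeR (366 at an unadjusted p under 0.05), 0 with limma voom and 3 with DESeq2, which were Cd99l2, Kng1l1 and ENSRNOG00000021536. Over the 475 positive calls that could be tested there the contralateral PBBI minus sham difference had a median of 0.19 on the log2 scale. The median interaction was 1.60 (log2) among positive calls, -1.16 among negative calls and -0.08 over all tested genes. Sizes among positive calls reached further: 179 exceeded a log2 interaction of 2 and 28 exceeded 4, while 28 negative calls lay below -2. In 7811 tested genes the 95% interval of the interaction lay wholly between -1 and 1. The hemisphere differences of the 6 PBBI rats all lay on one side of those of the 5 sham rats in 909 genes (5.48% of those tested), and in 544 of the 708 called genes (76.8%). The fit was repeated with each rat left out in turn, and below a call is said to be lost without a rat when it no longer passed in the fit that left that rat out, and to hold only without certain rats when it was lost in each of the other fits.

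**Figure D1:**
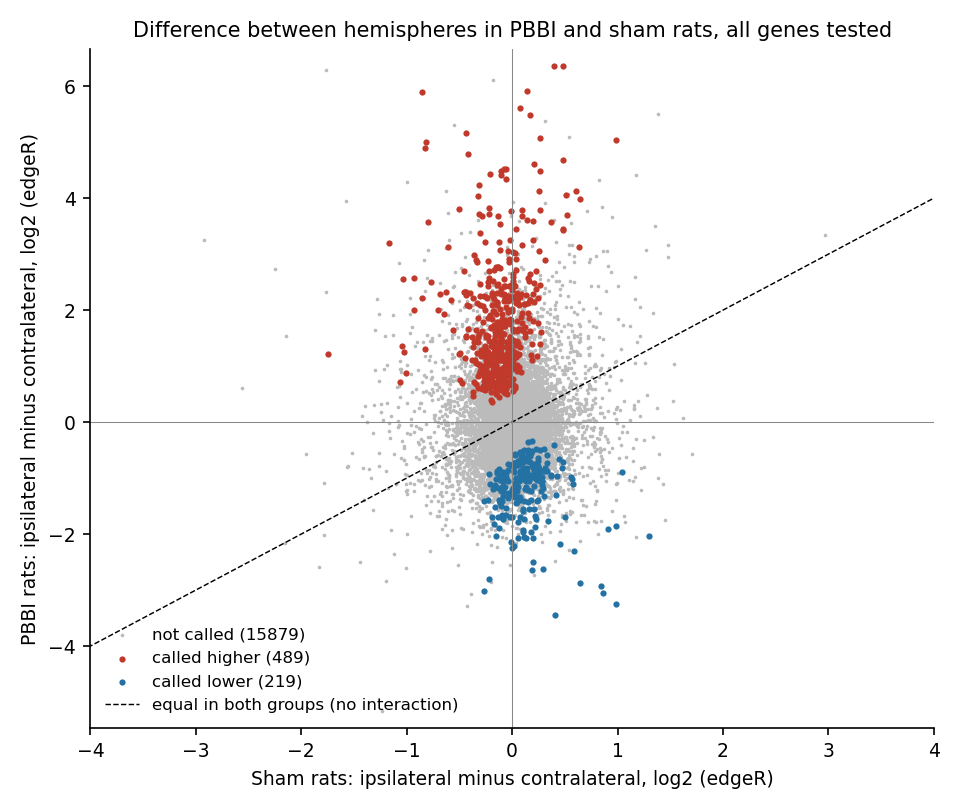
Log2 difference between the ipsilateral and the contralateral cortex of each tested gene in sham rats (x axis) and in PBBI rats (y axis), from 1 fit over 22 libraries. Points off the diagonal have an interaction, and the 489 positive and 219 negative calls are coloured. The called genes spread along the PBBI axis, with medians of 1.47 and -1.03 there against -0.12 and 0.11 on the sham axis.

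Gene symbols came from lists that accompany the study, which name 1716 of the tested genes. Most of these names stand in its list of genes that changed with injury in the ipsilateral cortex, and a few come only from its list of genes related to time in sleep stages. Those lists were drawn up by the study on these same samples, so named genes are a selected set: 450 of them (26.2%) had a positive call and 109 (6.35%) a negative one, against 0.262% and 0.74% of the 14871 genes without a name. The median interaction of all named genes was 0.95. Every count over a gene group below holds named genes only and is to be read against these shares. It is not independent evidence of a direction, since the study chose most of these names for changing after injury. The ipsilateral PBBI libraries enter both the study's lists and the interaction. Groups can share genes, and a shared gene is counted in each.

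The gene with the smallest p-value was Socs3 (ENSRNOG00000002946), the feedback inhibitor of STAT3 signalling that STAT3 itself induces. Its level in the ipsilateral cortex of the PBBI rats had a lowest, median and highest value of 8.38, 25.5 and 52.1 CPM (counts scaled by library size), against 0.847, 1.02 and 7.45 CPM in their contralateral cortex. In the sham rats it was 0.59, 0.627, 0.374, 0.491 and 1.2 CPM ipsilaterally and 0.593, 0.784, 0.529, 1 and 1.84 CPM contralaterally. Every ipsilateral PBBI library was therefore above every other library, the nearest being the contralateral cortex of PBBI rat 81. The interaction was 4.31 on the log2 scale (SE 0.39, 95% interval 3.48 to 5.15, edgeR adjusted p = 0.000814), and all 6 PBBI rats lay beyond all 5 sham rats (exact permutation test over all splits of the rats into groups of 6 and 5, two-sided p = 0.00216, the smallest it can give). Genes named for their p-value or size had to show no overlap between the rats. Without overlap the permutation test can give only this value or one just above it, so it adds nothing to the separation.

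Stat3 (ENSRNOG00000019742), the transcription factor of that pathway, moved less but as regularly. It was measured at 77.9, 175 and 238 CPM (lowest, median, highest) in ipsilateral and 35.2, 63.7 and 93.1 CPM in contralateral PBBI cortex. The sham values were 39.1, 36.9, 29, 46.5 and 41.3 CPM ipsilaterally and 46.8, 44.5, 37.6, 55.3 and 36.6 CPM contralaterally. The levels of the 2 sides of the PBBI rats overlapped between animals, since PBBI rat 81 had 93.1 CPM contralaterally and PBBI rat 83 had 77.9 CPM ipsilaterally, but within each PBBI rat the injured side was higher. The interaction of Stat3 was 1.55 (SE 0.16, 95% interval 1.21 to 1.90, edgeR adjusted p = 0.00147).

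Hmox1 (ENSRNOG00000014117), the enzyme that breaks down heme, had the second smallest p-value. Ipsilateral PBBI cortex held 40.2, 129 and 491 CPM and contralateral PBBI cortex 5.86, 9.76 and 29.3 CPM. Sham cortex held 5.16, 8, 3.42, 4.74 and 5.58 CPM ipsilaterally and 5.06, 6.52, 3.76, 8.12 and 5.47 CPM contralaterally. The lowest ipsilateral PBBI value, that of rat 85, was still above the highest contralateral one, that of rat 88, and the interaction was 3.65 (SE 0.36, edgeR adjusted p = 0.00107). Cd44 (ENSRNOG00000006094), the hyaluronan receptor that reactive astrocytes and leukocytes carry, went from 10.5, 22 and 30.9 CPM contralaterally to 40.6, 144 and 210 CPM ipsilaterally in PBBI rats. In sham rats Cd44 was at 11, 11.7, 7.03, 10.7 and 13.1 CPM ipsilaterally and 11.8, 13.2, 7.35, 19.2 and 9.47 CPM contralaterally. The sides did not overlap after PBBI and overlapped widely after sham surgery, with an interaction of 2.58 (SE 0.29, edgeR adjusted p = 0.00234). S100a11, a calcium-binding protein, and RGD1559482 were the other genes among the 8 smallest p-values beside the chemokines Ccl2 and Ccl7, with interactions of 2.79 (edgeR adjusted p = 0.00234) and 4.22 (edgeR adjusted p = 0.00234).

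**Figure D2:**
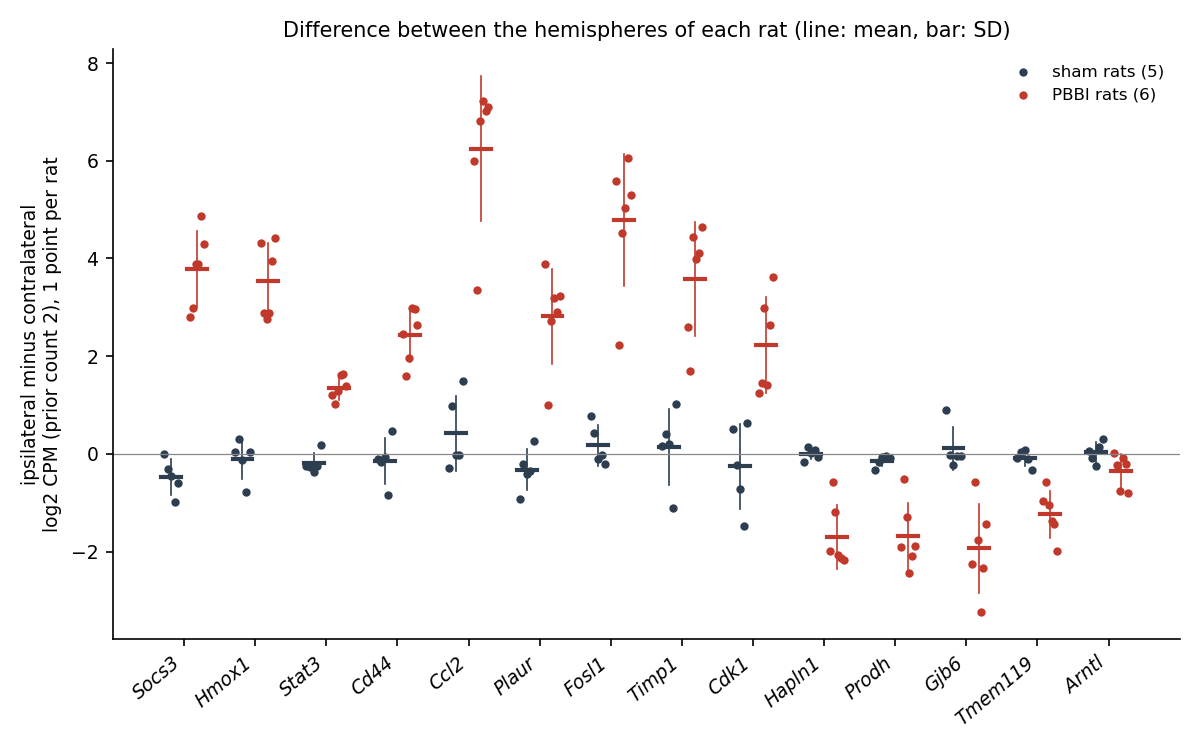
Hemisphere difference (log2 CPM ipsilateral minus contralateral, prior count 2) of named genes in each of the 11 rats, PBBI and sham in separate colours. For Socs3 the PBBI rats sit from 2.80 to 4.87 and the sham rats from -0.98 to -0.01, while for Hapln1 the PBBI rats sit from -2.18 to -0.58.

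The promoters of 6 of the genes that carry the positive interaction are shown as the sequence context of their starts. They are RefSeq sequences of the rat assembly GRCr8, which is later than the assembly used for counting, and each is a window of 300 bases that ends shortly after the annotated start, on the strand of the gene. Of the 450 named positive calls, 318 matched a promoter. Hmox1 and Ccl2 had smaller p-values than some of these and are not shown. Capitals mark matches to short motifs that were searched on both strands of all 33469 promoters. The order below follows the p-value of the interaction.
Socs3, chr10:103694719-103695018, minus strand, capitals mark TTTCCCGC after the start: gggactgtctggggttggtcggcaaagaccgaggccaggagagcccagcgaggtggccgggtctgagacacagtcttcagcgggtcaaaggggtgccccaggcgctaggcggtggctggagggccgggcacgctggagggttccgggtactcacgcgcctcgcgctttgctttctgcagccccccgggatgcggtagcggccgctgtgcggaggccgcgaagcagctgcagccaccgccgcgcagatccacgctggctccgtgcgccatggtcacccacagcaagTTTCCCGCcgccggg
Stat3, chr10:86363310-86363609, minus strand, no match: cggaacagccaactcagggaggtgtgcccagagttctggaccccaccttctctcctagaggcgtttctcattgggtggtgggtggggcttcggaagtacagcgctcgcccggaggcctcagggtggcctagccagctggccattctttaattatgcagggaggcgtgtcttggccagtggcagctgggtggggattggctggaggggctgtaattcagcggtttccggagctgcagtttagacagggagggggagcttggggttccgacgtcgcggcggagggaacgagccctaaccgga
Cd44, chr3:109699375-109699674, minus strand, capitals mark TGACNNNGC and TTTGAA, both on the opposite strand: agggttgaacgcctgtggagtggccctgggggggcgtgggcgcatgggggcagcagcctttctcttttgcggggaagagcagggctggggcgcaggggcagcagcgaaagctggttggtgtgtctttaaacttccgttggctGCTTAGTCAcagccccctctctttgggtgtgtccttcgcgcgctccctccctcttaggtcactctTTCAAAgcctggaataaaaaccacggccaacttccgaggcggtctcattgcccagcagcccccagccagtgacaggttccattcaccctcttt
Ccl7, chr10:67513845-67514144, plus strand, capitals mark TTCNNNGAA: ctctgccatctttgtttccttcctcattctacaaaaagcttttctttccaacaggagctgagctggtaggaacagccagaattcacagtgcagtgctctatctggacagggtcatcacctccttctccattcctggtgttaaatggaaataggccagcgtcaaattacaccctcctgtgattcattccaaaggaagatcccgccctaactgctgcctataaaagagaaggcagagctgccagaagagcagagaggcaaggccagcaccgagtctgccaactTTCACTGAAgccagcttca
Zfp36, chr1:92799059-92799358, minus strand, capitals mark TTCNNNGAA: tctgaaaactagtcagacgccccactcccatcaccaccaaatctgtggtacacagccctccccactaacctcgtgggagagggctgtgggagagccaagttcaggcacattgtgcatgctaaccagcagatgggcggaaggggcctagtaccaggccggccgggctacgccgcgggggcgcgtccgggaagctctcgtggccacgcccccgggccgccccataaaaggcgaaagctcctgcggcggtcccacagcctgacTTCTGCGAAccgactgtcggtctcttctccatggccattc
Fosl1, chr1:212183635-212183934, plus strand, capitals mark TGACNNNGC on the opposite strand: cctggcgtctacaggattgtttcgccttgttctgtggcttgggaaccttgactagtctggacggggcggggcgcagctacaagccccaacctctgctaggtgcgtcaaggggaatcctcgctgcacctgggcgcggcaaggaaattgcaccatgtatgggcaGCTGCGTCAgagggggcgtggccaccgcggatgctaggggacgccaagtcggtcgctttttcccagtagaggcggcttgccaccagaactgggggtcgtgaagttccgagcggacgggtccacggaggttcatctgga

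The match in the Socs3 window begins 35 bases after the annotated start and follows an ATG in the same reading frame, so it lies in what reads as coding sequence. The motif TTCNNNGAA, the palindrome bound by STAT factors, stood in the Ccl7 and Zfp36 windows 31 and 10 bases after the start and in 8.87% of all promoters. It was present in 7.86% of the named positive calls and in 7.81% of the named negative calls that matched a promoter. Of the positive calls in the IL-6 family and JAK-STAT group described below, 7 had a promoter and 0 of these held it. TGACNNNGC, the core of the antioxidant response element, occurred in 15.4% of the positive calls and in 20.3% of the negative calls. Its share was 15.2% over all named genes that matched a promoter and 12.1% over all promoters. The AP-1 element TGACTCA was found in 7.23% of the positive calls and in 3.12% of the negative calls. Its share was 5.28% over the named genes with a promoter and 4.63% over all promoters. These shares are descriptions with no test, a match is not a binding site, and the absence of a match says only that those letters are not in that window.

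Among CC chemokines and their receptors, which attract monocytes and T cells, 5 of 8 tested members had a positive call and 0 a negative one, with a median interaction of 3.53. Ccl2 (ENSRNOG00000007159), the main monocyte attractant, was at 25.2, 158 and 412 CPM (lowest, median, highest) in ipsilateral PBBI cortex and at 0.957, 1.53 and 6.44 CPM in contralateral PBBI cortex. The sham libraries held 0.756, 1.2, 0.962, 0.571 and 3.92 CPM ipsilaterally and 0.927, 0.588, 0.984, 0.583 and 1.38 CPM contralaterally. Its hemisphere difference was at least 3.35 in each PBBI rat and at most 1.48 in a sham rat, and the interaction was 5.88 (SE 0.69, 95% interval 4.39 to 7.36, edgeR adjusted p = 0.00234). Ccl7 (ENSRNOG00000000239), which shares receptors with Ccl2, rose from 0.156, 0.469 and 1.79 CPM contralaterally to 9.26, 37.7 and 114 CPM ipsilaterally in PBBI rats, with an interaction of 5.96 (SE 0.69, edgeR adjusted p = 0.00234). In sham rats Ccl7 stayed below 0.5 CPM in every library. Ccl12, Ccl4 and the receptor Ccr1 also passed, with interactions of 4.06, 2.99 and 2.89, whereas Ccl20, Ccr7 and Ccl6 had positive values of 4.56, 2.57 and 1.28 that did not pass. The number of calls in this group was 3 on omitting PBBI rat 90 or sham rat 82 or 84 and 7 on omitting PBBI rat 83, and Ccr1 lost its call on omitting sham rat 82 or 84 or PBBI rat 90.

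Genes of neutrophil recruitment and neutrophil granules had a positive call in 7 of 11 tested members, with a median interaction of 2.70. Cxcl1 (ENSRNOG00000002802), a ligand of the neutrophil receptor CXCR2, was at 2.57, 13.3 and 31.1 CPM ipsilaterally and 0.0696, 0.199 and 0.489 CPM contralaterally in PBBI rats. In sham rats it was at 0.0737, 0.399, 0.16, 0.127 and 0.971 CPM ipsilaterally and 0.111, 0.0981, 0.292, 0.13 and 1.15 CPM contralaterally. Sham rat 94 had the highest Cxcl1 of both sham groups, on both sides, and sham rat 84 had a hemisphere difference of 1.71, still below the smallest PBBI difference of 3.15. The interactions of Cxcl1 and Cxcl3 were 5.53 (edgeR adjusted p = 0.00441) and 5.78 (edgeR adjusted p = 0.008), and that of Cxcl3 did not pass on omitting sham rat 82. Cxcl3 had a median of only 0.076 CPM in ipsilateral and 0.046 CPM in contralateral sham cortex, so the size of its interaction is uncertain. Lcn2, an iron-scavenging protein of neutrophils and reactive astrocytes, had an interaction of 3.40 (edgeR adjusted p = 0.00602), and Mmp9, the gelatinase that opens the blood-brain barrier, one of 2.47 (edgeR adjusted p = 0.0162). The calprotectin subunits S100a8 and S100a9, which make up much of the neutrophil cytosol, passed with 2.16 and 1.99, and the activating receptor Trem1 with 4.60. The receptors Cxcr2 and Csf3r themselves had values of 4.76 and 1.27 and did not pass. Calls in this group numbered 3 on omitting sham rat 82 and 11 on omitting PBBI rat 85.

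In the IL-6 family and its JAK-STAT pathway, 10 of 15 tested members had a positive call, 0 a negative one, and the median interaction was 1.69. The ligands Il11, Lif and Clcf1 had interactions of a size near that of Socs3, at 5.21 (edgeR adjusted p = 0.0106), 4.40 (edgeR adjusted p = 0.0118) and 4.03 (edgeR adjusted p = 0.0197). Il11 was at 1.21, 14.6 and 38.2 CPM in ipsilateral and 0.241, 0.351 and 0.668 CPM in contralateral PBBI cortex, and at 0.111, 0.266, 0.321, 0.0951 and 0.23 CPM in ipsilateral and 0.13, 0.425, 0.219, 0.275 and 0.276 CPM in contralateral sham cortex. The ipsilateral libraries of PBBI rats lay above all others, the nearest being rat 83 with 1.21 CPM. Lif was the least regular of the passing ligands: its hemisphere difference was 0.21, 3.98 and 5.47 (lowest, median, highest) in PBBI rats and 1.01, 1.48, -0.50, -1.23 and -0.54 in sham rats, so that PBBI rat 85 lay inside the sham range. On the receiving side, the oncostatin M receptor Osmr passed with 2.27 (edgeR adjusted p = 0.0319), the IL-6 receptor Il6r with 1.01 (edgeR adjusted p = 0.0374), and the kinases Jak2 and Jak3 with 0.81 and 1.29. Il6 itself had an interaction of 1.81 (edgeR adjusted p = 0.335) and did not pass, and neither did Osm at 3.03 (edgeR adjusted p = 0.0538). The number of positive calls was 4 on omitting sham rat 82 or 84 and 13 on omitting PBBI rat 83 or 85.

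Of 24 tested genes of IL-1, TNF and NF-kB signalling, 10 had a positive call and all 24 had a positive value, with a median of 1.41. The TNF receptor Tnfrsf1a was the clearest, with hemisphere differences of 0.92, 1.39 and 2.21 (lowest, median, highest) in PBBI rats and -0.78, -0.27, -0.19, -0.24 and -0.21 in sham rats and an interaction of 1.78 (edgeR adjusted p = 0.00441). The NF-kB cofactor Bcl3 and the antiapoptotic target Birc3 followed with 3.21 (edgeR adjusted p = 0.00946) and 1.93 (edgeR adjusted p = 0.0106). Icam1, the endothelial adhesion molecule for leukocytes, had an interaction of 1.68 (edgeR adjusted p = 0.0106), and the subunits Rela and Nfkb2 had smaller ones of 0.85 and 1.06. Il1b passed with 2.58 (edgeR adjusted p = 0.0233) and its decoy receptor Il1r2 with 3.51 (edgeR adjusted p = 0.0138), while the receptor antagonist Il1rn, at 2.31 (edgeR adjusted p = 0.137), and the prostaglandin synthase Ptgs2, at 1.93 (edgeR adjusted p = 0.0687), did not. Calls numbered 7 on omitting PBBI rat 90 or sham rat 82 or 84 or 91 and 14 on omitting PBBI rat 85. Promoters were found for 8 of the 10 positive calls, and 3 of these (37.5%) held the kB element GGANTTTCC, against 1.28% of all promoters and 2.42% of those of named genes. TTCNNNGAA stood in 2 of the 8 (25%), against 8.87% of all promoters. The group was drawn up from general knowledge of this signalling, so these shares describe the group and not the interaction. The 30-base windows of the 3 genes with a kB element, chosen after the shares were known, are given on the strand of the gene with the element in capitals.
Icam1, chr8:27829617-27829646, plus strand, element on the opposite strand: acttcagtttGGAAATTCCtgggtcgcagg
Nfkbiz, chr11:58251699-58251728, plus strand: ttttggcctgGGAATTTCCagcgtgtggaa
Nfkb2, chr1:255108345-255108374, plus strand: ggtattttcgGGACTTTCCtaagagcacta

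The AP-1 and immediate early genes, transcription factors induced within minutes to hours of injury, had 8 positive calls among 10 tested members and a median interaction of 2.07. Fosl1 (ENSRNOG00000020552), the late AP-1 subunit FRA-1, was at 1.18, 7.36 and 20.3 CPM ipsilaterally and 0.087, 0.198 and 0.391 CPM contralaterally in PBBI rats. In sham cortex it was at 0.405, 0.494, 0.267, 0.0317 and 0.115 CPM ipsilaterally and 0.222, 0.36, 0.292, 0.0324 and 0.138 CPM contralaterally. Only the ipsilateral PBBI libraries exceeded 1 CPM, and the interaction was 4.80 (SE 0.64, edgeR adjusted p = 0.00398). Myc and Zfp36, which encodes an RNA-binding protein that destabilises cytokine messages, had interactions of 2.49 (edgeR adjusted p = 0.00398) and 2.70 (edgeR adjusted p = 0.00398). Jun passed with 1.40 (edgeR adjusted p = 0.0229), and Fosb, at 2.28 (edgeR adjusted p = 0.229), did not. Maff passed with 2.48 (edgeR adjusted p = 0.0229) although PBBI rat 83, with a hemisphere difference of 0.43, lay inside the sham range of -0.52 to 0.73. The number of calls was 3 on omitting PBBI rat 88 or 90 or sham rat 82 or 84. Maff kept its call only on omitting PBBI rat 81, 83 or 85 or sham rat 91.

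Genes that neurons with damaged axons are known to induce had 7 positive calls of 14 tested, with a median interaction of 1.77. Gadd45a, a stress sensor, and Tubb6, a tubulin, had the smallest p-values, at 2.13 (edgeR adjusted p = 0.00545) and 3.83 (edgeR adjusted p = 0.008). The neuropeptides Calca, which encodes CGRP, and Gal, galanin, passed with 2.89 (edgeR adjusted p = 0.0106) and 2.95 (edgeR adjusted p = 0.0376). Atf3, the transcription factor most used to mark axotomised neurons, passed with 3.48 (edgeR adjusted p = 0.0162). Its hemisphere differences were 0.38, 3.45 and 4.91 (lowest, median, highest) in PBBI rats and -0.75, 0.22, 0.46, -1.35 and -0.04 in sham rats, so PBBI rat 83 overlapped the sham rats. Sprr1a, a cornified-envelope protein induced in regenerating neurons, had an interaction of 4.40 (edgeR adjusted p = 0.0177). Neither Atf3 nor Sprr1a passed on omitting sham rat 82. Sox11, Gfra1 and Ret had positive values of 1.26, 0.78 and 1.42 that did not pass. Calls numbered 3 on omitting sham rat 82 and 8 on omitting PBBI rat 83.

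**Figure D3:**
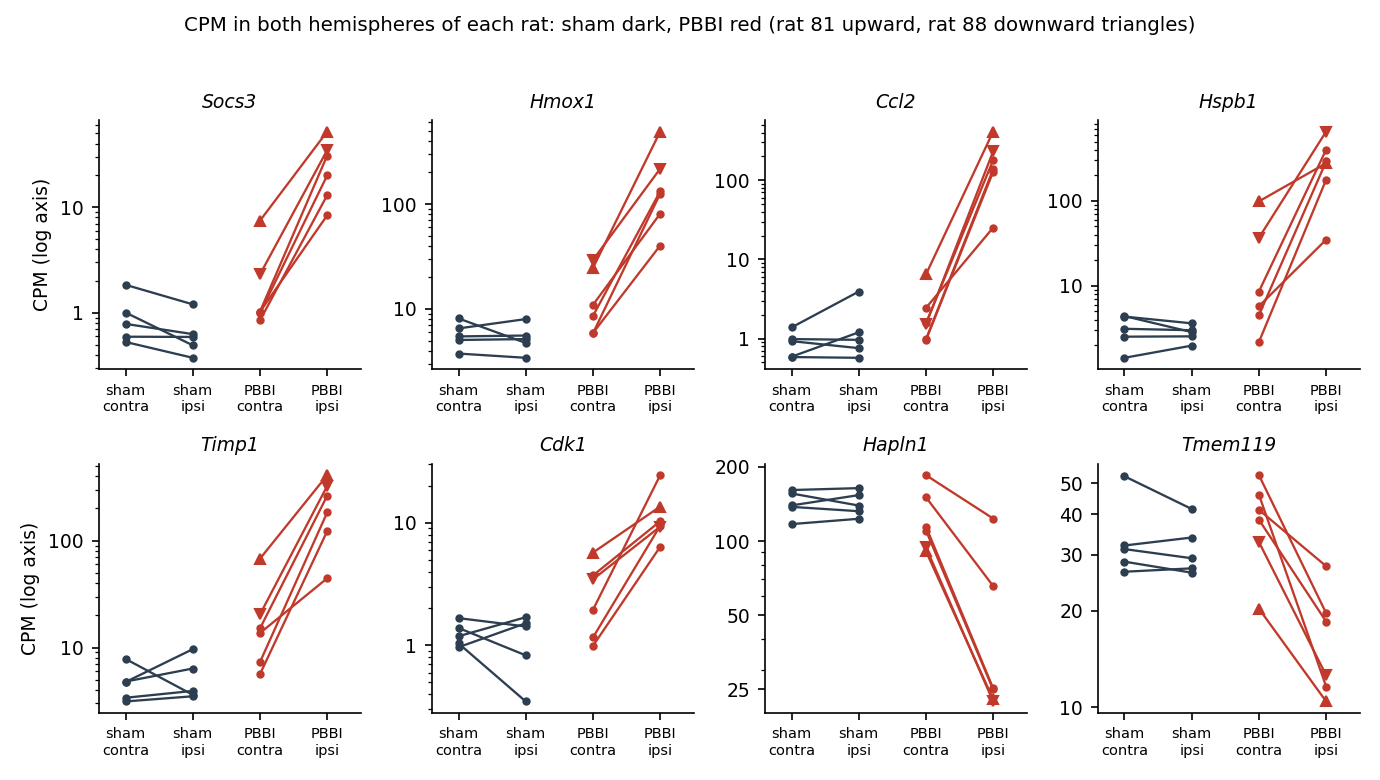
CPM (log axis) of 8 named genes in the contralateral and the ipsilateral cortex, with a line joining the 2 libraries of each rat. In PBBI rats the lines of Socs3, Hmox1 and Ccl2 rise and those of Hapln1 and Tmem119 fall in every animal, while in sham rats the directions vary between animals or, for Socs3, all fall.

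Plasminogen activation, coagulation and kinin genes had 5 positive calls of 17 tested (29.4%), close to the 26.2% of all named genes. Plaur (ENSRNOG00000037931), the receptor that holds urokinase at the cell surface, was at 1.93, 7.19 and 19.9 CPM in ipsilateral and 0.696, 1.01 and 1.32 CPM in contralateral PBBI cortex. Sham cortex held 1.42, 0.703, 1.02, 0.587 and 1.27 CPM ipsilaterally and 2.71, 0.817, 1.37, 0.761 and 1.06 CPM contralaterally. The ipsilateral level of PBBI rat 83, the lowest of its group, lay below the contralateral level of sham rat 82, and the other ipsilateral PBBI levels lay above all other libraries. The interaction was 3.24 (SE 0.45, edgeR adjusted p = 0.00441), and that of Plau, urokinase itself, was 3.03 (edgeR adjusted p = 0.0346). Procr, the endothelial protein C receptor, and Tfpi2, an inhibitor of plasmin, passed with 2.31 (edgeR adjusted p = 0.0161) and 2.63 (edgeR adjusted p = 0.0219), with overlap in both between PBBI rat 83 and the sham rats. The call of Procr was lost on omitting sham rat 84, and that of Tfpi2 held only on omitting PBBI rat 81, 83, 85 or 96 or sham rat 94. Von Willebrand factor (Vwf, 0.79), tissue factor (F3, 0.56) and the thrombin receptor F2r (0.34) did not pass. Calls in the group numbered 2 on omitting sham rat 84 and 6 on omitting PBBI rat 83.

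Extracellular matrix and hyaluronan genes had 14 positive calls and 1 negative call of 25 tested, with a median of 2.06. Timp1 (ENSRNOG00000010208), the metalloproteinase inhibitor made by reactive astrocytes, was at 44.5, 223 and 410 CPM in ipsilateral and 5.64, 14.4 and 67.8 CPM in contralateral PBBI cortex, the contralateral maximum being PBBI rat 81. In sham cortex it was at 3.5, 6.37, 3.93, 3.61 and 9.66 CPM ipsilaterally and 3.13, 4.8, 3.39, 7.83 and 4.76 CPM contralaterally. The interaction was 3.47 (SE 0.55, edgeR adjusted p = 0.008). Tgfbi, a matrix protein induced by TGF-beta, had an interaction of 3.11 (edgeR adjusted p = 0.0106), and fibronectin (Fn1), tenascin C (Tnc) and the fibronectin receptor subunit Itga5 had 1.89, 2.09 and 2.45. The hyaluronan synthases Has1 and Has2 passed with 6.75 and 2.39, whereas Has3 had a value of -1.28 (edgeR adjusted p = 0.177) and did not. The negative call was Hapln1, the link protein that fastens hyaluronan to proteoglycans in the perineuronal nets around neurons. Hapln1 had hemisphere differences of -2.18, -2.03 and -0.58 (lowest, median, highest) in PBBI rats and -0.16, 0.14, 0.03, 0.07 and -0.06 in sham rats, and its interaction was -1.71 (edgeR adjusted p = 0.00896), the smallest p-value among negative calls with a name. Positive calls in the group numbered 7 on omitting PBBI rat 88 or sham rat 82 or 91 and 19 on omitting PBBI rat 85.

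Heat shock, heme and metal stress genes had 8 positive calls of 14 tested identifiers and a median of 1.99. Beside Hmox1, the small heat shock protein Hspb1 passed with 4.53 (edgeR adjusted p = 0.0138) and the cochaperone Bag3 with 1.90 (edgeR adjusted p = 0.00961). Metallothionein 1 is held under 2 identifiers, ENSRNOG00000025764 with an interaction of 2.09 (edgeR adjusted p = 0.00545) and ENSRNOG00000038047 with 2.52 (edgeR adjusted p = 0.0118). These, Hspa1b (3.58) and other genes with near-identical copies are uncertain as single genes, because reads could be divided between copies. Calls numbered 6 on omitting PBBI rat 90 or 96 or sham rat 82 or 84 or 86 and 10 on omitting PBBI rat 83 or 85.

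Of 20 tested genes known to mark reactive astrocytes, 14 had a positive call, the largest share (70%) of the cell type lists with more than 2 tested members, and the median interaction was 2.44. Among these calls, Cd44, Timp1, Lcn2, Hspb1, Clcf1 and Osmr are also counted in other groups above, so the share is not separate from theirs. Vim (ENSRNOG00000018087), the intermediate filament vimentin, was one of the most abundant positive calls. It was at 248, 578 and 717 CPM in ipsilateral and 74.6, 103 and 309 CPM in contralateral PBBI cortex, and at 48.2, 86.5, 75.3, 52 and 90.7 CPM in ipsilateral and 64.5, 96.9, 64.6, 95.2 and 79.7 CPM in contralateral sham cortex. PBBI rat 81 had 309 CPM contralaterally, above the ipsilateral level of PBBI rat 83, but each PBBI rat was higher on its injured side, and the interaction was 2.13 (SE 0.38, edgeR adjusted p = 0.0128). Gfap, the intermediate filament that defines astrocytes, passed with 1.57 (edgeR adjusted p = 0.0411). Cd14, Lcn2 and the pentraxin Ptx3 passed with 3.53, 3.40 and 3.33. The summed level of the list was 3420 to 9427 CPM in the ipsilateral PBBI libraries, 891 to 5152 CPM in the contralateral PBBI libraries, 649 to 1242 CPM in the ipsilateral sham libraries and 779 to 1485 CPM in the contralateral sham libraries. Positive calls numbered 8 on omitting sham rat 82 and 16 on omitting PBBI rat 83.

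Genes of resting astrocytes moved the other way: 9 of 17 tested had a negative call (52.9%, against 6.35% of all named genes), 0 a positive one, and the median interaction was -0.92. In bulk tissue, fewer cells of a type and less RNA per cell cannot be told apart, here or for any gene that was lower. Ttpa, the tocopherol transfer protein, had hemisphere differences of -3.68, -1.77 and -1.22 (lowest, median, highest) in PBBI rats and 0.18, 0.26, 0.17, 0.29 and -0.42 in sham rats. Gjb6, the astrocytic gap junction protein connexin 30, had -3.24, -2.01 and -0.57 in PBBI rats and 0.89, -0.02, -0.24, -0.05 and -0.04 in sham rats. In both genes all 6 PBBI rats were below all 5 sham rats, which a rule that named them required. The interactions of Ttpa and Gjb6 were -2.06 (edgeR adjusted p = 0.0156) and -2.04 (edgeR adjusted p = 0.0177). The proline oxidase Prodh and the thyroid hormone transporter Slco1c1 passed with -1.56 (edgeR adjusted p = 0.0138) and -1.36 (edgeR adjusted p = 0.0209). Aldh1l1, Aldoc and Sparcl1 had values of -0.71, -0.88 and -0.65 that did not pass. The 2 members with a positive value were Dao, at 3.72 (edgeR adjusted p = 0.144), and Slc14a1, at 0.46 (edgeR adjusted p = 0.261), and neither passed. Negative calls numbered 2 on omitting sham rat 82 and 13 on omitting PBBI rat 83, Gjb6 was lost on omitting sham rat 82, and Slco1c1 on omitting sham rat 82, 84 or 91. The summed level of the list was 4236 to 6226 CPM in the ipsilateral PBBI libraries, 7630 to 9978 CPM in the contralateral PBBI libraries, 6961 to 9154 CPM in the ipsilateral sham libraries and 7929 to 8908 CPM in the contralateral sham libraries.

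Other negative calls with a name lay outside the lists. Mettl11b, Sowaha, the potassium channel Kcnt2 and the monocarboxylate transporter relative Slc16a4 had interactions of -2.15 (edgeR adjusted p = 0.0095), -1.58 (edgeR adjusted p = 0.00924), -1.19 (edgeR adjusted p = 0.0106) and -1.77 (edgeR adjusted p = 0.0108). The tight junction protein Cldn10 had -2.09 (edgeR adjusted p = 0.0138). The acetyltransferase relatives Cml3 and Cml5, relatives of similar sequence whose reads could be shared, had -2.59 (edgeR adjusted p = 0.0138) and -2.26 (edgeR adjusted p = 0.0201). Cml3 was the more abundant, with contralateral and ipsilateral levels in PBBI rats of 24.4, 31.4 and 50.7 CPM and 1.77, 3.65 and 16 CPM and sham levels of 23.8, 25.9, 34.4, 24.5 and 22.3 CPM and 17.2, 23.2, 22.5, 19.1 and 31.7 CPM in the same order of sides. The injured side was lower in each PBBI rat and in 4 of the 5 sham rats, by less, and higher in sham rat 94. Albumin (Alb) had an interaction of -2.69 (edgeR adjusted p = 0.0239), a call that held only on omitting PBBI rat 81, 83 or 85. Calm2, encoding calmodulin, was an abundant negative call, at -0.77 (edgeR adjusted p = 0.0481), and held only on omitting PBBI rat 85 or sham rat 94. Cml5 lost its call on omitting sham rat 82, 84 or 91 or PBBI rat 90. The transcripts known by clone or locus names, AABR07027243.1, AABR07066677.1 and LOC100360856, had negative interactions of -2.91 (edgeR adjusted p = 0.0106), -1.34 (edgeR adjusted p = 0.0118) and -1.16 (edgeR adjusted p = 0.0118).

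The list of resting microglia genes held 13 members, of which 3 could be named and 2 were tested. These 2 were Tmem119 and Siglec5, and both had a negative call. The 11 members that were not tested are not covered by this. Tmem119 had hemisphere differences of -1.99, -1.22 and -0.58 (lowest, median, highest) in PBBI rats and -0.09, 0.04, 0.08, -0.11 and -0.34 in sham rats, with an interaction of -1.15 (edgeR adjusted p = 0.018). Siglec5 had an interaction of -1.57 (edgeR adjusted p = 0.0223). Tmem119 did not pass on omitting sham rat 82 or 84, and Siglec5 not on omitting sham rat 82, 84, 91 or 94 or PBBI rat 90. Genes of macrophages and phagocytosing microglia went the other way, with 14 positive calls of 25 tested and a median of 1.64. Their list had a summed level of 1952 to 5269 CPM in the ipsilateral PBBI libraries, 1025 to 1603 CPM in the contralateral PBBI libraries, 813 to 1323 CPM in the ipsilateral sham libraries and 943 to 1222 CPM in the contralateral sham libraries, so the 2 ranges of the PBBI rats did not overlap. The lysosomal proteases Ctsz and Ctsb had interactions of 1.78 (edgeR adjusted p = 0.0105) and 0.79 (edgeR adjusted p = 0.0227), the second held only on omitting PBBI rat 81, 83, 85 or 88 or sham rat 94. Lgals3, the lectin galectin-3, and Gpnmb had 3.08 (edgeR adjusted p = 0.0163) and 2.65 (edgeR adjusted p = 0.0177), both lost on omitting sham rat 82. The pattern receptor Clec4e had 4.37 (edgeR adjusted p = 0.013), and osteopontin (Spp1) and the integrin Itgax 4.20 and 3.79. Clec4e had a median of only 0.038 CPM in ipsilateral and 0.128 CPM in contralateral sham cortex, so the size of its interaction is uncertain. The general myeloid genes Itgam and Tyrobp, at 1.59 (edgeR adjusted p = 0.0503) and 1.28 (edgeR adjusted p = 0.0505), and the macrophage genes Cd163 and Arg1, at 0.64 and 0.98, did not pass. The number of positive calls was 5 on omitting sham rat 82 or 84 and 19 on omitting PBBI rat 85, and 7 with rats 81, 82 and 83 all left out, which have libraries whose titles take another form than the rest.

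**Figure D4:**
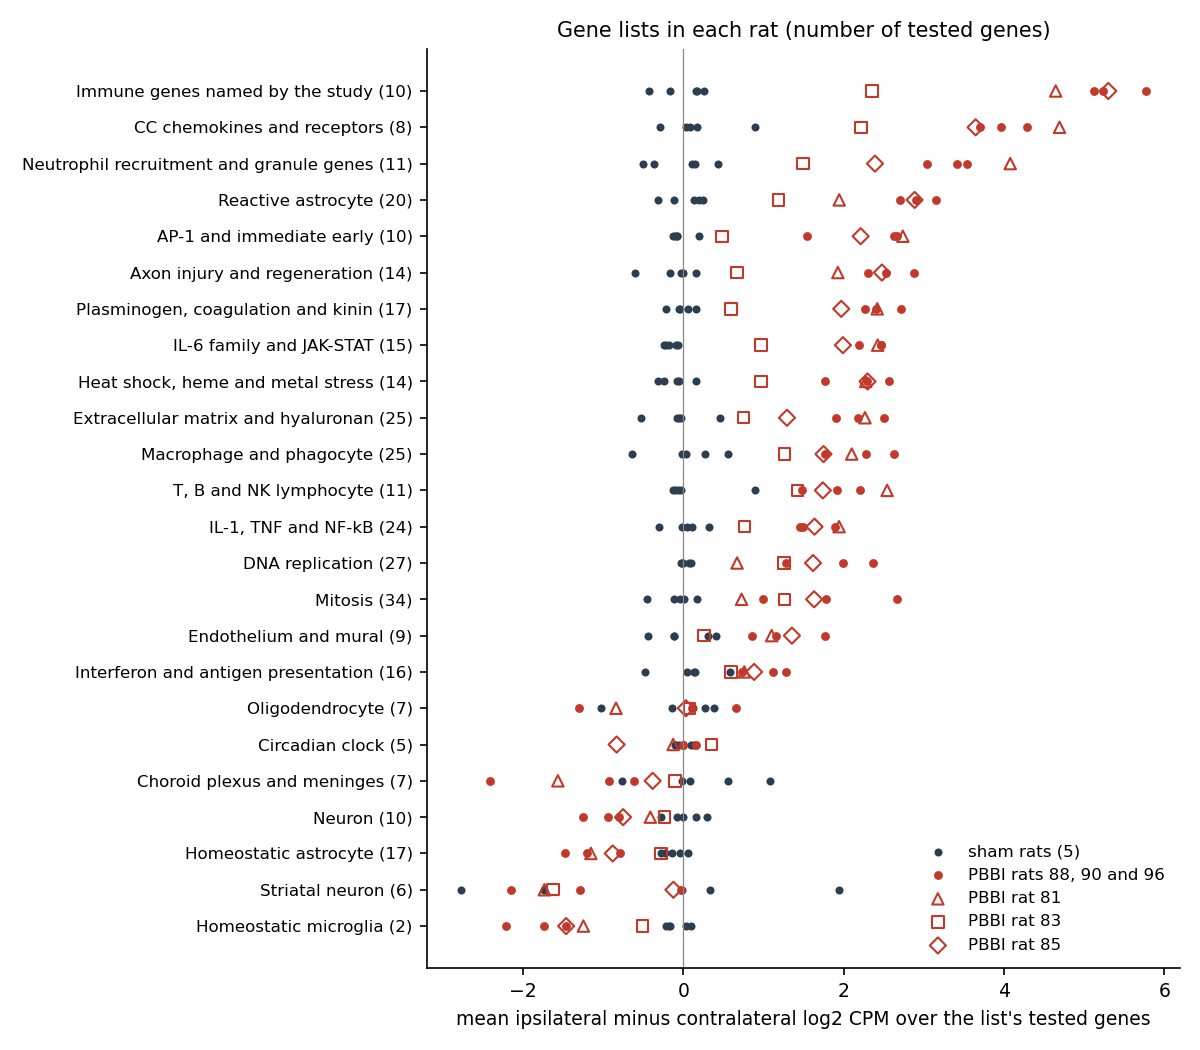
Mean hemisphere difference (log2 CPM ipsilateral minus contralateral) over the tested members of each gene group, 1 point per rat. Chemokine, reactive astrocyte and phagocyte genes are higher on the injured side in all 6 PBBI rats, resting astrocyte genes are lower, and the striatal neuron genes spread more widely in sham than in PBBI rats.

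DNA replication genes had 13 positive calls of 27 tested and mitosis genes 13 of 34, with medians of 1.48 and 1.53, and all members of both lists had positive values. Cdt1 and the helicase subunit Mcm2, which license replication origins, had interactions of 2.46 (edgeR adjusted p = 0.0106) and 1.79 (edgeR adjusted p = 0.0181). The uracil glycosylase Ung and the methylation reader Uhrf1 had 1.48 (edgeR adjusted p = 0.0143) and 1.36 (edgeR adjusted p = 0.0192). Among mitosis genes, Ube2c of the anaphase-promoting complex and the kinase Aurkb had 2.60 (edgeR adjusted p = 0.00904) and 2.41 (edgeR adjusted p = 0.0197), and the kinase Cdk1 had 2.46 (edgeR adjusted p = 0.0245). Top2a (ENSRNOG00000053047), the topoisomerase of dividing cells, was at 10.8, 16.3 and 29.4 CPM in ipsilateral and 1.14, 2.73 and 13.8 CPM in contralateral PBBI cortex. Sham cortex held 2.47, 1.79, 0.775, 0.919 and 1.71 CPM ipsilaterally and 2.11, 2.22, 1.6, 2.46 and 1.43 CPM contralaterally. The contralateral PBBI maximum of 13.8 CPM, in rat 81, was above the lowest ipsilateral value, and the interaction was 2.71 (edgeR adjusted p = 0.0229).

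The proliferation calls depended on the pairing of the sides and on single sham rats, and so did the calls over all tested genes. Of all 708 calls, 54 passed without the rat as a block and 191 on omitting sham rat 82. Replication calls numbered 2 on omitting sham rat 82 and 17 on omitting PBBI rat 85, and mitosis calls numbered 1 on omitting sham rat 82 or 84 and 16 on omitting PBBI rat 85. Without the rat as a block, 0 members of either list passed (edgeR). With the block, DESeq2 called 25 mitosis and 22 replication genes, and limma voom 5 and 12. Top2a and Cdk1 lost their calls on omitting sham rat 82, 84, 86 or 91 or PBBI rat 90, Mcm2 and Uhrf1 on omitting sham rat 82, 84 or 91, and Aurkb on omitting sham rat 82 or 84. The mean hemisphere difference of the mitosis list ran from 0.73 to 2.67 in the PBBI rats and from -0.45 to 0.17 in the sham rats, and that of the replication list from 0.67 to 2.37 in the PBBI rats and from -0.03 to 0.09 in the sham rats. PBBI rat 81 had the smallest difference of the PBBI rats in 17 of 27 replication genes (63.0%) and in 20 of 34 mitosis genes (58.8%), and PBBI rat 96 the largest in 17 and 29. Relative to sham rats, the contralateral median of the mitosis genes was 1.77 (log2) higher in PBBI rat 81 and 1.35 higher in rat 88, 0.67 higher in rat 83, and between -0.15 and 0.21 in rats 85, 90 and 96, against 1.52 to 3.09 on the injured side of the 6 rats.

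Promoters were found for 10 positive calls of each of these lists. Of the mitosis promoters, 8 (80%) held TTTGAA, the cell cycle homology region bound by the complex that times G2 and M phase genes, against 18.3% of all promoters and 14.7% of those of named genes. Of the replication promoters, 3 (30%) held TTTCCCGC or TTTGGCGC, forms of the E2F element, against 1.45% of all promoters and 3.2% of those of named genes. The E-box CACGTG also stood in 3 replication promoters (30%), against 6.42% of all promoters. In the heat shock group GAANNTTC and TGACNNNGC each stood in 3 of 5 promoters. No share was taken over uncalled members of a group. These groups too were drawn up from general knowledge, so the shares describe them and not the interaction. The 30-base windows of 4 mitosis genes and of the 3 replication genes with an E2F element, chosen after these shares were known, are given on the strand of the gene with the element in capitals.
Top2a, chr10:84473098-84473127, minus strand, element on the opposite strand: gctagatgaatgTTCAAAtgaaactaggga
Cdk1, chr20:19265265-19265294, plus strand: taccgcggtgagTTTGAAactgctggcact
Prc1, chr1:143659451-143659480, plus strand: cctccggctcggTTTGAAttccgcggggtc
Ect2, chr2:111966612-111966641, minus strand: gcgtctgggtttTTTGAAtcggaggcggta
Cdt1, chr19:67529269-67529298, plus strand: gggaagtagcttTTTGGCGCcatggcgcag
Mcm3, chr9:30733734-30733763, minus strand, element on the opposite strand: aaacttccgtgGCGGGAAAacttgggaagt
Mcm5, chr19:13488794-13488823, plus strand: ccaggttggttTTTCCCGCgaaagtcggct

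Lymphocyte genes had 2 positive calls of 11 tested, a share below that of all named genes, with a median of 1.98. The calls were Klrk1 and Klrb1b, receptors of natural killer and some T cells, at 2.98 (edgeR adjusted p = 0.0237) and 1.98 (edgeR adjusted p = 0.0284). Klrk1 held only on omitting PBBI rat 81, 83, 85 or 96 or sham rat 94, and Klrb1b only on omitting PBBI rat 83, 85 or 90 or sham rat 94. The count of positive lymphocyte calls was 0 to 2 with each rat left out. The T cell genes Cd3d and Cd8a, at 2.13 (edgeR adjusted p = 0.152) and 2.99 (edgeR adjusted p = 0.137), did not pass, and the summed level of the list was 5.57 to 19.1 CPM in the ipsilateral PBBI libraries, 1.35 to 3.13 CPM in the contralateral PBBI libraries, 1.12 to 3.75 CPM in the ipsilateral sham libraries and 1.02 to 1.82 CPM in the contralateral sham libraries. In the interferon and antigen presentation list, 3 of 16 tested had a positive call, also under the share of all named genes, with a median of 0.82. That count was 0 on omitting PBBI rat 88 or 90 or 96 or sham rat 82 or 84 or 91 and 6 on omitting PBBI rat 85, it was 8 with DESeq2 and 3 with limma voom, and 12 of the 16 had an unadjusted p under 0.05 (edgeR). Irf1 was small but regular, with hemisphere differences of 0.69 to 0.85 in PBBI rats and -0.24, 0.04, 0.09, -0.11 and 0.24 in sham rats and an interaction of 0.77 (edgeR adjusted p = 0.0229). Irf9 and Ifitm3 had 0.76 (edgeR adjusted p = 0.0439) and 1.60 (edgeR adjusted p = 0.0499), and both held only on omitting PBBI rat 81, 83 or 85, while Irf1 held only without one of those or sham rat 86 or 94.

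Neuronal genes had 0 calls among 10 tested members of the general neuron list with edgeR (8 at an unadjusted p under 0.05), 0 with limma voom and 5 with DESeq2. All 10 values were negative, with a median of -0.82. The mean hemisphere difference of the list ran from -1.25 to -0.24 in the PBBI rats and from -0.28 to 0.29 in the sham rats, so the 2 groups overlapped. Scg3, a secretory granule protein, and Camkv, a kinase-like synaptic protein, were the nearest to passing, at -0.82 (edgeR adjusted p = 0.0645) and -0.81 (edgeR adjusted p = 0.0723). Genes of striatal neurons, which frontal dissections can include, had 0 calls of 6 with edgeR (0 at an unadjusted p under 0.05), DESeq2 or limma voom, and their mean difference ran from -2.15 to -0.04 in the PBBI rats and from -2.77 to 1.94 in the sham rats. Gpr6 and Syndig1l had interactions of -1.55 (edgeR adjusted p = 0.404) and -1.21 (edgeR adjusted p = 0.577), with 95% intervals of -3.56 to 0.47 and -3.42 to 1.01. The striatal genes thus differed between the sides of sham rats by as much as in PBBI rats, and the summed level of that list was 34.1 to 123 CPM in the ipsilateral PBBI libraries, 66.4 to 150 CPM in the contralateral PBBI libraries, 62.6 to 240 CPM in the ipsilateral sham libraries and 66.4 to 450 CPM in the contralateral sham libraries. The part that unequal striatal content of the dissections had in other genes was not tested.

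Oligodendrocyte genes had 0 calls of 7 tested with edgeR (3 at an unadjusted p under 0.05), 0 with limma voom and 2 with DESeq2, with Plekhb1 at -0.72 (edgeR adjusted p = 0.101) and Klk6 at 1.72 (edgeR adjusted p = 0.108). The list's summed level was 900 to 1748 CPM in the ipsilateral PBBI libraries, 859 to 2566 CPM in the contralateral PBBI libraries, 1017 to 1849 CPM in the ipsilateral sham libraries and 1027 to 2099 CPM in the contralateral sham libraries. Of 9 endothelial and mural genes, 1 had a positive call, the smooth muscle gene Tagln, at 2.15 (edgeR adjusted p = 0.0209), which was lost on omitting sham rat 82, 84, 91 or 94 or PBBI rat 90. Positive calls in that list numbered 0 without any of those rats and 6 on omitting PBBI rat 83, DESeq2 gave 6 and limma voom 3, and 8 of the 9 genes had an unadjusted p under 0.05 (edgeR). The tip cell gene Esm1 had 2.68 (edgeR adjusted p = 0.112) and the glucose transporter Slc2a1 0.90 (edgeR adjusted p = 0.0548). Values were positive in 7 of the 9 genes. Rgs5 and Cd34 went the other way, at -1.22 (edgeR adjusted p = 0.081) and -0.64 (edgeR adjusted p = 0.482), and did not pass. Of 7 choroid plexus and meningeal genes, 1 had a negative call, the organic anion transporter Slc22a8, at -2.20 (edgeR adjusted p = 0.03), which held only on omitting PBBI rat 83 or 85 or sham rat 84. Negative calls in the list numbered 0 to 3 with each rat left out, 4 with DESeq2 and 1 with limma voom. That list had a summed level of 148 to 661 CPM in the ipsilateral PBBI libraries, 321 to 730 CPM in the contralateral PBBI libraries, 441 to 984 CPM in the ipsilateral sham libraries and 453 to 1164 CPM in the contralateral sham libraries, with overlap between all 4 groups, and its part in other results was not tested. No tested member of any of these cell type lists was at 0 in every library of a group.

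Among 10 immune and injury genes singled out by the study for their ipsilateral change, 8 had a positive call and the median was 5.56, a count with no independent weight because the study picked them on these libraries. Beside those above, the pair that did not pass were Ucn2, a corticotropin-releasing factor relative, and Csrp3, a muscle LIM protein induced in axotomised neurons. In PBBI rats 81, 83, 85, 88, 90 and 96, Ucn2 had 280, 28, 26, 126, 37 and 97 counts ipsilaterally and 4, 2, 0, 8, 0 and 0 contralaterally. In sham rats it had 2, 2, 0, 0 and 0 counts ipsilaterally and 2, 0, 0, 5 and 0 contralaterally. Csrp3 had 74, 10, 87, 148, 60 and 108 counts ipsilaterally and 14, 4, 0, 4, 4 and 2 contralaterally in the PBBI rats, and at most 3 counts in any sham library. Both genes were higher on the injured side of every PBBI rat, and neither passed (edgeR adjusted p = 0.0751 and 0.117). With sham libraries at so few counts no fold is given.

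Genes of the circadian clock list had 0 calls among the 5 that could be named and tested with edgeR (3 at an unadjusted p under 0.05), 0 with limma voom and 1 with DESeq2 (Vipr2). The study reported Arntl, Arntl2 and Vipr2 as changed between PBBI and sham rats in the ipsilateral cortex. That is another contrast than the interaction, which also takes in the contralateral cortex. Arntl (ENSRNOG00000014448), encoding the core clock activator BMAL1, was at 17, 27.7 and 30.9 CPM (lowest, median, highest) in ipsilateral and 27.8, 32.2 and 37.6 CPM in contralateral PBBI cortex. Sham cortex held 43.5, 38.6, 42.5, 43 and 40.7 CPM ipsilaterally and 41.7, 41.1, 50.3, 39.2 and 33 CPM contralaterally. The ipsilateral PBBI libraries lay below every sham library, the contralateral ones overlapped the sham libraries, and the hemisphere differences of -0.79 to 0.01 in PBBI rats overlapped those of -0.25 to 0.30 in sham rats. The interaction was -0.37 with a 95% interval of -0.78 to 0.03 (edgeR adjusted p = 0.303), so the interval reached a value 0.78 lower on the injured side. Npas2, a partner of BMAL1, and Vipr2, the receptor of vasoactive intestinal peptide, had -0.84 (edgeR adjusted p = 0.108) and -1.10 (edgeR adjusted p = 0.109). Timeless had 0.86 (edgeR adjusted p = 0.177) and Arntl2 1.40 (edgeR adjusted p = 0.362), the latter with 1 PBBI rat (85) at a hemisphere difference of -2.43.

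Genes without a name contributed 39 positive and 110 negative calls. Those with the smallest p-values were ENSRNOG00000046699 at 3.55 (edgeR adjusted p = 0.0193) and ENSRNOG00000049918 at 1.77 (edgeR adjusted p = 0.0217) among positive calls, and ENSRNOG00000004443 at -4.23 (edgeR adjusted p = 0.0138) and ENSRNOG00000005223 at -1.22 (edgeR adjusted p = 0.0157) among negative ones. Sox7, an endothelial transcription factor, was the one gene outside the lists among the 8 largest positive interactions of named genes without overlap between the rats, at 4.65 (edgeR adjusted p = 0.00441). The first identifier lost its call on omitting sham rat 82, 84 or 91, the second on omitting sham rat 84, 86 or 91 or PBBI rat 88 or 90, and the last on omitting sham rat 84.

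The rats did not contribute alike. Over the 489 positive calls the median hemisphere difference was 1.37 in PBBI rat 81, 0.80 in rat 83, 1.44 in rat 85, 1.40 in rat 88, 1.78 in rat 90 and 1.76 in rat 96, against -0.25, -0.06, -0.01, -0.23 and 0.01 in the sham rats. Rat 83 had the smallest difference of the PBBI rats in 282 of the 489 positive calls (57.7%) and in 146 of the 219 negative calls (66.7%). It was also the smallest in 9 of 10 AP-1 genes and in 12 of 14 axon injury genes. On the contralateral side, PBBI rats 81 and 88 stood apart. Of the 489 positive calls, 332 (67.9%) were higher in the contralateral cortex of rat 81 than in every contralateral sham library, and 246 (50.3%) in that of rat 88, against 14.6% and 14.0% of all tested genes. The other PBBI rats had 70, 44, 71 and 37 such genes (rats 83, 85, 90 and 96), with shares between 7.57% and 14.5%, where all tested genes gave 9.52% to 18.8%. The median contralateral level of the positive calls was 0.72 above the sham rats in rat 81 and 0.47 above in rat 88 (log2), and between -0.13 and 0.00 in the others. These genes were chosen on the interaction, which includes the contralateral libraries, so the shares are descriptions. The 2 rats also had raised contralateral levels of reactive astrocyte genes (median 1.69 and 1.24) and phagocyte genes (1.07 and 0.78). In a principal component analysis of the hemisphere differences, PBBI rat 85 stood alone on the first component (33.9% of the variance), at -160.0 against -7.31 to 70.6 in the other rats. On the second component (24.4%) rat 85 was at 20.5, inside the sham range of 18.8 to 54.8. The other PBBI rats were at -66.1 to 3.65 there, below all sham rats.

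**Figure D5:**
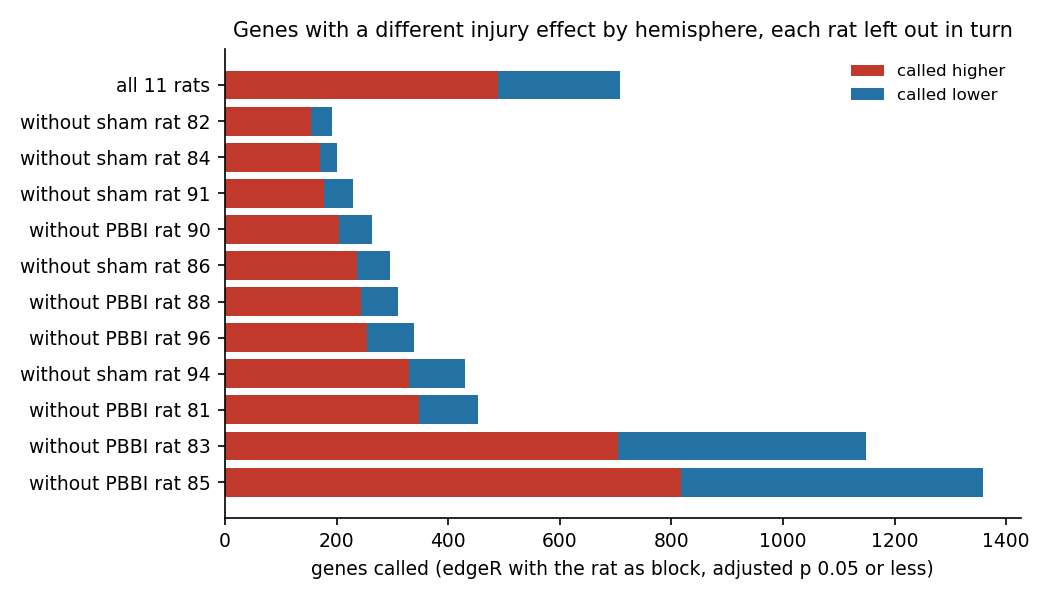
Number of genes with a positive and with a negative call when each rat is left out in turn, below the bar for all 11 rats. The total runs from 192 on omitting sham rat 82 to 1358 on omitting PBBI rat 85, against 708 with all rats.

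Which rats entered the fit decided how many genes passed. The 708 calls became 1358 on omitting PBBI rat 85 and 1149 on omitting PBBI rat 83, and 453, 309, 264 and 338 on omitting PBBI rats 81, 88, 90 and 96. Without a sham rat they became 192 (rat 82), 201 (rat 84), 296 (rat 86), 230 (rat 91) and 430 (rat 94). Of the 708 calls, 150 passed in all 11 of these fits, 128 positive and 22 negative. Among the 84 called genes whose values were examined singly, 52 passed in all 11, Socs3, Hmox1, Stat3, Cd44, Ccl2, Ccl7, Cxcl1, Il11 and Fosl1 among them. With 1 rat fewer the fit also has fewer degrees of freedom. Without the rat as a block, no gene group had more than 6 positive calls. No call changed its sign in any of these fits.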

How the data were processed

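Both cortical hemispheres of 11 rats were sequenced after ribosomal RNA depletion, 22 libraries in all. Per the submitters' processing notes and the study's methods, the authors aligned reads with STAR 2.4.2a to the rat genome Rnor 6.0 and counted them on genes with featureCounts 1.4.3-p1. The deposited values were raw counts per gene with no normalization. Strand handling in counting and molecular identifiers are not given in the sources used here.

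In R 4.3.3, edgeR 4.0.16 (quasi-likelihood F test, TMM scaling, filterByExpr over the 4 groups) was run on the counts. The design held the rat as a block and an ipsilateral term for each treatment, and the contrast was their difference. p-values were adjusted over all 16587 genes by Benjamini-Hochberg, with a threshold of 0.05. Standard errors were the size over the square root of F, and differences per rat used log2 CPM with prior count 2. The pairing came from the animal numbers, and the deviations of a rat's 2 libraries from their group means correlated at 0.246 to 0.758. Single genes also had an exact permutation test over all splits of the rats, whose smallest p is 0.00216. CPM were scaled by TMM library sizes.

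Alternatives were no block, DESeq2 1.42.0, limma 3.58.1 (voom, with and without sample weights, and trend on 1 difference per rat), RLE, other filters and leaving out rats. The code was tested on simulated counts drawn from the edgeR model. There, with the rat as a block, 5 of 88 edgeR calls and 29 of 146 DESeq2 calls were false. In the same counts edgeR recovered 68 of 100 genes changed by a log2 of 2 and 15 of 100 changed by 1. Named genes were the 8 smallest p and 8 largest interactions in each direction among named calls whose rats did not overlap and whose mean log2 CPM reached 1, the 2 most abundant of these, up to 4 called members of each list by p (2 where a list had no call), all clock and study-named immune genes, and up to 2 identifiers without a name. Other list members were quoted as examples, and 2 genes that the rule names are not reported here. Members and gene lists were chosen with earlier results of these data known. Symbols came from the study's lists of called genes, and 4 names altered to dates were left out. Promoters are RefSeq sequences of GRCr8. All rats had 1 library per side, and nothing was pooled.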

Additional observations from a re-analysis of the deposited data

Results flagged for a closer look

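The interaction is itself a test of whether the hemisphere difference of PBBI rats differs from that of sham rats, so each named gene that passed it is listed here with its log2 interaction (edgeR, adjusted p of at most 0.05). A positive value means a larger ipsilateral excess after PBBI. In order of the rule that named them, the first positive values were Socs3 (4.31), Hmox1 (3.65), Stat3 (1.55), Cd44 (2.58), Ccl7 (5.96), Ccl2 (5.88), S100a11 (2.79), RGD1559482 (4.22), Cxcl3 (5.78), Cxcl1 (5.53), Il11 (5.21) and Fosl1 (4.8). Further positive values were Sox7 (4.65), Ccl12 (4.06), Ccr1 (2.89), Lcn2 (3.4), Mmp9 (2.47), Lif (4.4), Tnfrsf1a (1.78), Bcl3 (3.21), Birc3 (1.93), Icam1 (1.68), Plaur (3.24) and Procr (2.31). Next came Tfpi2 (2.63), Cdt1 (2.46), Ung (1.48), Mcm2 (1.79), Uhrf1 (1.36), Ube2c (2.6), Aurkb (2.41), Top2a (2.71), Cdk1 (2.46), Cd14 (3.53), Timp1 (3.47) and Ctsz (1.78). The list went on with Clec4e (4.37), Lgals3 (3.08), Gpnmb (2.65), Klrk1 (2.98), Klrb1b (1.98), Tagln (2.15), Gadd45a (2.13), Tubb6 (3.83), Calca (2.89), Atf3 (3.48), Zfp36 (2.7) and Myc (2.49). Others were Maff (2.48), Tgfbi (3.11), Mt1 ENSRNOG00000025764 (2.09), Bag3 (1.9), Mt1 ENSRNOG00000038047 (2.52), Irf1 (0.77), Irf9 (0.76), Ifitm3 (1.6), Hspb1 (4.53), Sprr1a (4.4), ENSRNOG00000046699 (3.55) and ENSRNOG00000049918 (1.77). The remaining positive values included Ctsb (0.79) and Vim (2.13).

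Negative values were Hapln1 (-1.71), Sowaha (-1.58), Mettl11b (-2.15), AABR07027243.1 (-2.91), Kcnt2 (-1.19), Slc16a4 (-1.77), LOC100360856 (-1.16), AABR07066677.1 (-1.34), Alb (-2.69), Cml3 (-2.59), Cml5 (-2.26) and Cldn10 (-2.09). Other negative values were Ttpa (-2.06), Gjb6 (-2.04), Prodh (-1.56), Slco1c1 (-1.36), Tmem119 (-1.15), Siglec5 (-1.57), Slc22a8 (-2.2), ENSRNOG00000004443 (-4.23), ENSRNOG00000005223 (-1.22) and Calm2 (-0.77).

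In 12 of 194 groups of rats (7 PBBI and 5 sham), 1 rat stood apart from the others of its group in the hemisphere difference of a named gene, where chance alone gives about 1 in 20 groups by this criterion. PBBI rat 83 was the nearest of the PBBI rats to the sham rats in Ccl7 (3.80), Ccl2 (3.35), Sowaha (-0.73), Mettl11b (-0.95) and Procr (0.35). PBBI rat 85 was apart in Ttpa (-3.68) and Arntl2 (-2.43). Sham rat 82 was apart in Gjb6 (0.89), Tnfrsf1a (-0.78) and Slco1c1 (0.76), and sham rat 94 in Stat3 (0.17) and Ttpa (-0.42). Values are log2 CPM ipsilateral minus contralateral.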

How the results depend on the processing

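The count of 708 calls (489 positive, 219 negative) was 54 (51 and 3) without the replicate block, 1715 (1074 and 641) with DESeq2 and 3847 (1943 and 1904) with limma voom and sample quality weights. Without the block, 19 of the 84 called genes described singly still passed, and all 54 calls were among the 708. Leaving out each rat in turn gave 192 to 1358 calls, 154 to 818 positive and 31 to 540 negative. With only log2 interactions beyond 1 in size, the calls numbered 551 (403 and 148). They were within 1.5 times of 708 with limma voom (761), limma-trend on rat differences (797), RLE (701), no filter (597), at least 10 counts in every library (711) and without rats 81, 82 and 83 (590), the rats with libraries whose titles take another form, which the labels do not explain. Weighted voom divided its calls about evenly between the directions, as no other setting did. No call of the 708 changed sign in any setting. For the genes described singly, 1680 repeated values stayed on their side of the threshold, 214 no longer passed and 30 newly passed. Genes whose rats did not overlap were 568 positive and 341 negative, and 1254 and 1154 without the 3 rats, where fewer rats have to be separated, and 598 to 865 and 369 to 728 with each rat left out. The cause of the other shifts was not tested. Depth exceeded 42085341 counts in every library except the shallowest, which had that number, and it limits the folds of genes at a few counts in sham cortex, such as Ucn2 and Csrp3.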
